A study of Mus musculus with 12 samples.

Results

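Oxidative phosphorylation genes encode the respiratory chain complexes I to IV and the ATP synthase, complex V. They were taken from the array as every non-control probe whose gene name begins with Nduf, Uqcr or Atp5, begins with Cox followed by a digit from 4 to 8, or is Sdha, Sdhb, Sdhc, Sdhd or Cyc1. The rule found 135 probes of 91 genes among 55681 probes and 34844 gene names. Of these, 133 probes of 90 genes entered the tests, having been well above background on 3 or more of a group's 4 arrays. Cox8c, an alternative isoform of a cytochrome c oxidase subunit, was well above background on 0 of 12 arrays, and 1 Cox7c probe also failed the filter. Among the 90 genes, 81 encode subunits, with 36 in complex I, 4 in complex II, 9 in complex III, 17 in complex IV (Ndufa4 included) and 15 in complex V. Another 4 are complex I assembly factors, Ndufaf1, Ndufaf2, Ndufaf3 and Ndufaf4. The other 5 match the name rule and were counted neither as subunits nor as assembly factors. They are Atp5s (now Dmac2l), Atp5sl (now Dmac2), Cox7a2l, Ndufa4l2 and Cox4nb, an old name of Emc8. Any role of theirs in the chain was not considered.

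The hearts came from mice with a conditional deletion of Nkx2-5, a cardiac transcription factor, and from controls, all with Floxed-Nkx2-5-Δneo alleles. Mutants also carried Cx40-creERT2, a Cre that tamoxifen activates and that is expressed in embryonic trabecular myocardium. Pregnant females received tamoxifen on E10.5 and again on E11.5 (days of gestation) for the TrbE10 group (Nkx2-5Δtrab in the labels) or on E13.5 and again on E14.5 for the TrbE14 group (Nkx2-5Δcomp in the labels). Control hearts are labelled as not injected, whereas the study's methods describe controls as littermates, Nkx2-5-ΔNeo fl/fl and Cx40+/+, so without the Cre allele. Which holds was not settled. If controls came from untreated females, prenatal tamoxifen, caesarean delivery and fostering cannot be told apart from the deletion. Treated litters were delivered by caesarean section and fostered. RNA was taken from the whole left ventricle without the septum at 6 months of age, 4 hearts per group and 1 array per heart. The Cre reaches trabecular cells and their descendants, so part of each mutant ventricle kept Nkx2-5 and each array read deleted and undeleted cells together.

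Between 22888 and 26155 probes per array were well above background and 0 spots were saturated. Control and TrbE14 hearts were hybridised on 1 slide and all TrbE10 hearts on another, so a slide difference and a TrbE10 difference cannot be told apart. By sex-linked probes the male hearts were 1 of the 4 controls, 2 in TrbE10 and 3 in TrbE14. All 15 cardiomyocyte markers passed the filter. Nkx2-5 itself read 11.95, 12.23, 11.93 and 11.89 in control hearts (log2 signal), 11.27, 11.67, 11.21 and 11.22 in TrbE10 hearts, and 11.12, 11.57, 11.32 and 11.63 in TrbE14 hearts. Every mutant heart lay below every control heart. The log2 change was -0.66 ± 0.14 (SE) in TrbE10 (limma adjusted p = 0.0459) and -0.59 ± 0.14 in TrbE14 (limma adjusted p = 0.106), and whether the probe lies in the deleted part of the gene was not given in the sources used here. The TrbE10 call was lost when any 1 heart was left out other than TrbE10 replicate 2 and TrbE14 replicate 1, and its limma adjusted p ran from 0.0155 to 0.13 over 20 alternatives.

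Complexes I to IV pass electrons from NADH and succinate to oxygen. Complexes I, III and IV pump protons across the inner mitochondrial membrane as they do so, and complex V uses the returning protons to make ATP. Working myocardium depends on this route for most of its ATP, and transcripts of the subunits are among the most abundant of the heart. Complexes I, III, IV and V are built from subunits encoded in the nucleus and in mitochondrial DNA, whereas complex II is encoded by nuclear genes alone. NRF1, the ETS factor GABP and the oestrogen-related receptors (ERR) are known activators of many of the nuclear genes.

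Promoters of the members are shown first, as the shared sequence that the name rule did not use. All 91 gene names were matched to a RefSeq symbol and 74 had a promoter window, 250 bases before and 50 after the start of the gene on GRCm38.p6. The letters GCGCANGCG of the NRF1 site, read on both strands, stood in 20 of 67 subunit promoters (29.9%) and in 9.63% of the promoters of 17492 protein-coding genes. By complex the site was found in 25% of 32 promoters of complex I, 2 of 3 of complex II, 2 of 5 of complex III, 1 of 13 of complex IV (7.69%) and 7 of 14 of complex V (50%). The ETS core CCGGAAG stood in 23.9% of subunit promoters against 12.9% of all, and the ERR site TCAAGGTCA in 2.99% against 0.377%. TNAAGTG, the element that NKX2-5 is known to bind, stood in 11.9% of subunit promoters and 12.4% of all. The median GC content of the windows was 58.3% for subunits and 56.3% for all genes, so the shares of GC-rich motifs compare windows of slightly different composition. A match of these letters is a description of the sequence and not a measured binding site.

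The 120 bases before the start are printed for 7 members that the results below turn on or that show the motifs, 5′ to 3′ on the strand of the gene, with NRF1, ERR and ETS matches in capitals. Where an NRF1 match reads the same way on both strands, the capitals run over 10 bases because the matches on the 2 strands overlap.
Sdha, catalytic flavoprotein of complex II, chr13:74350241-74350360, minus strand: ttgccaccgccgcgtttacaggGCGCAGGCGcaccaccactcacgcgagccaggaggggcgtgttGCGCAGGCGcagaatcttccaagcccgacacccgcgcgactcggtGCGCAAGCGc
Sdhd, membrane anchor of complex II, chr9:50603850-50603969, minus strand: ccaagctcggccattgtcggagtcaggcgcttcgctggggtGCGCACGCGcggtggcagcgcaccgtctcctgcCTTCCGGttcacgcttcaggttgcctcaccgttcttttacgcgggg
Ndufa8, supernumerary subunit of complex I, chr2:36049339-36049458, minus strand: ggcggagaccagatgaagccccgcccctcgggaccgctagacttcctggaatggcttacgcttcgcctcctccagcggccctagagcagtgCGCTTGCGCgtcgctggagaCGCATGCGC
Atp5g2, a c ring subunit of complex V, chr15:102671048-102671167, minus strand: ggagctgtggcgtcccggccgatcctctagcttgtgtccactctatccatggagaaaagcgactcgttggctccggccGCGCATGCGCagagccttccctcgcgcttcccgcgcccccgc
Cox6a1, ubiquitous isoform of a complex IV subunit, chr5:115348959-115349078, minus strand: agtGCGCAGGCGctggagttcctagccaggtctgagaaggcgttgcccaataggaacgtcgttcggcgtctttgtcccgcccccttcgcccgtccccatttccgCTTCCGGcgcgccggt
Cox7a1, heart and muscle isoform of a complex IV subunit, chr7:30184051-30184170, plus strand: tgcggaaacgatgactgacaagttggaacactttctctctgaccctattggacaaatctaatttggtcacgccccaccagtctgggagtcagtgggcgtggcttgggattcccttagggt
Ndufb2, supernumerary subunit of complex I, chr6:39592445-39592564, plus strand: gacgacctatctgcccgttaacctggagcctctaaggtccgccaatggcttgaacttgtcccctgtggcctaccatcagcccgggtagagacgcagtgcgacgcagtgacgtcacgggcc

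Sdha held 3 NRF1 matches, which start 98, 55 and 10 bases before the start site, the largest number among the promoters printed. Sdhd held an NRF1 match and an ETS match, and Ndufa8 held 2 NRF1 matches within 29 bases of its start. Cox7a1 and Ndufb2, the members with the lowest adjusted p of their complexes in TrbE10, showed none of the 3 capitalised motifs in these 120 bases. TNAAGTG stood across the start of Cox7a1, from position -1, and further upstream in Sdha (from -197) and Cox6a1 (from -123).

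In TrbE10 hearts most nuclear subunit transcripts were slightly below control. The median log2 change over the 81 subunits was -0.16 (0.894 times control), against -0.02 over all 18021 genes tested. A negative value was found for 75 of the 81, where 54.8% of all genes had one. Differences were small one by one: the 95% interval of a subunit's change had a median half-width of 0.19 on the log2 scale. Of the 90 member genes 1 passed an adjusted p of 0.05, the complex I subunit Ndufb2, where 1.93% of all genes tested passed. At an unadjusted p under 0.05 the number was 26, where 16.8% of all genes reached that level. Of these, 25 were lower than control, whereas 9% of all genes were lower at that level. All 4 TrbE10 hearts lay below all 4 control hearts for 17 members, where 5.63% of all genes did so, and above them for 2 members, where the share of all genes was 4.94%.

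In TrbE14 hearts the shift was smaller. The subunits' median log2 change was -0.10 (0.935 times control), against -0.03 over all genes. Of the 81 subunits 72 were negative, where 55.9% of all genes were. In this comparison, which lies within 1 slide, 0 members passed an adjusted p of 0.05 by limma where 0.66% of all genes did. SAM at a false discovery rate of 5% also gave 0 members, with 326 probes called over the whole array. At an unadjusted p under 0.05 there were 6 members, where 13.9% of all genes reached that level, and 4 of them were lower, where 7.4% of all genes were lower at that level. The smallest adjusted p, 0.219, belonged to Cox4i2, which was higher. All TrbE14 hearts lay below all control hearts for 11 members (5.43% of all genes did) and above for 2 (4.65% of all genes did).

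**Figure D1:**
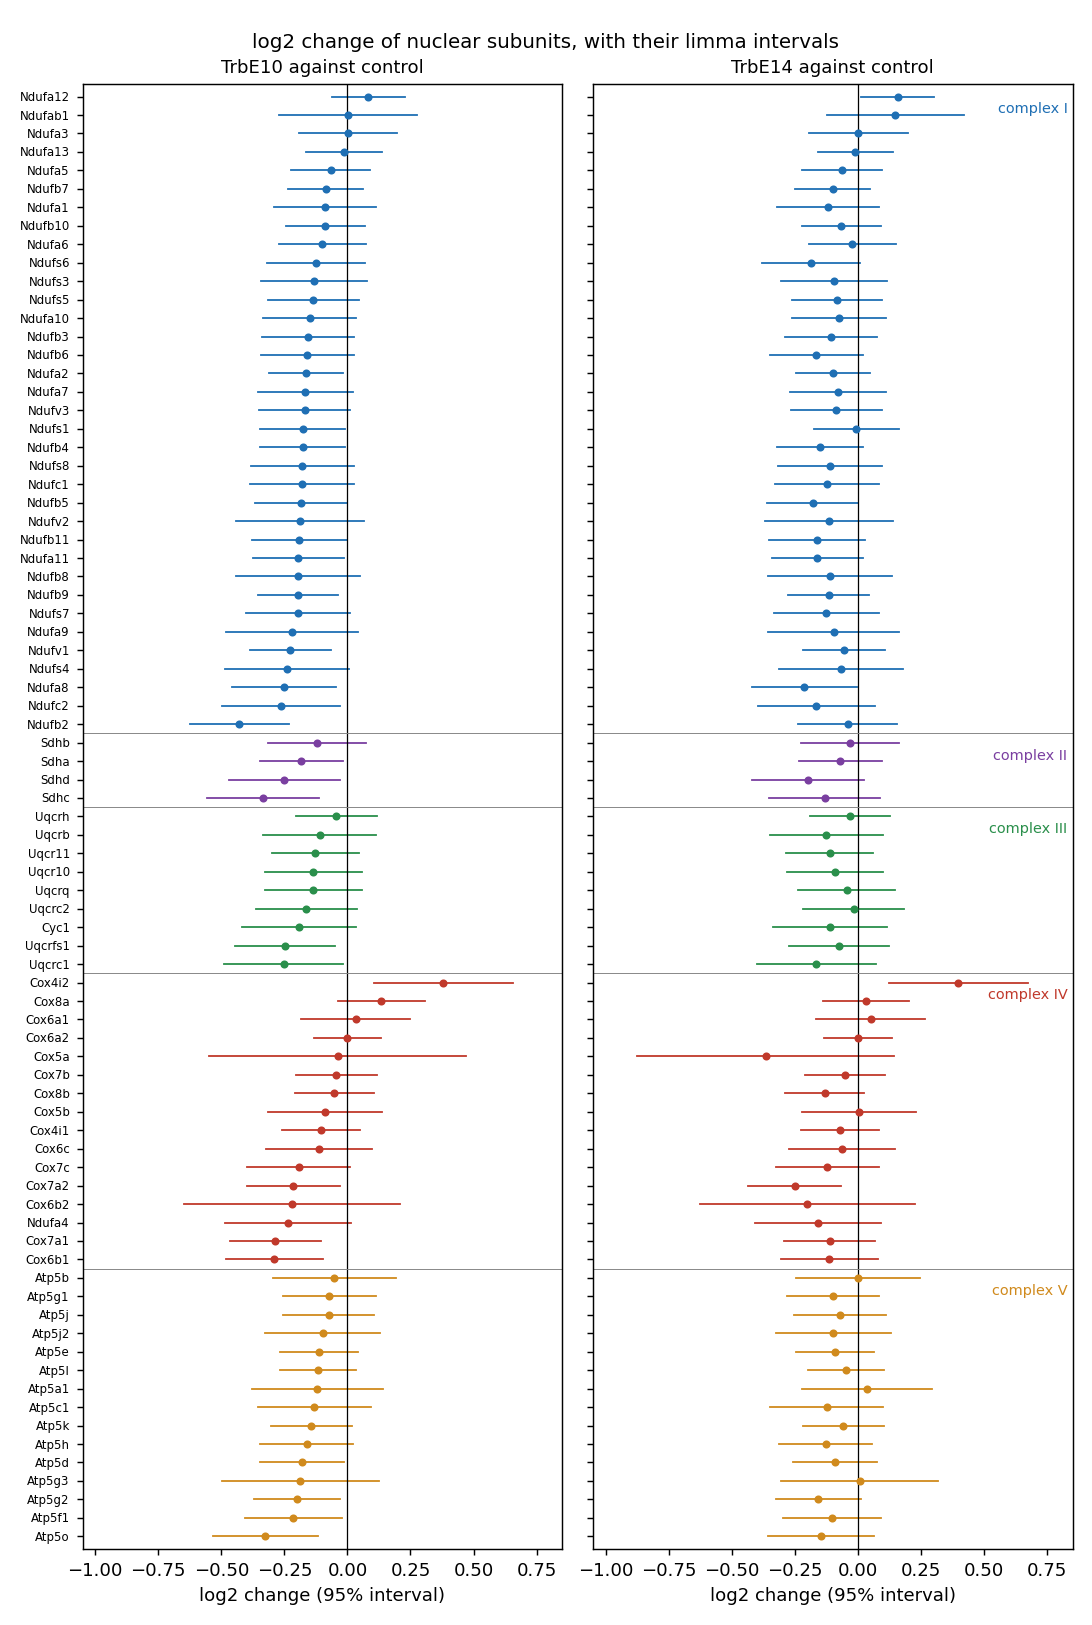
log2 change of nuclear subunits in TrbE10 (left) and TrbE14 (right) hearts against control, 4 hearts per group, with the 95% limma interval as a bar and colours for complexes I to V. Most points lie left of zero, Cox4i2 lies right of it in both panels, and Cox7b2, near background, and 1 other subunit are not drawn.

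Between the mutant groups the tested difference was smaller still. The subunits' median was -0.05 for TrbE10 against TrbE14, with 68 of 81 negative, where 48.8% of all genes were. By limma 0 members passed an adjusted p of 0.05, as did 0% of all genes, and 3 members had an unadjusted p under 0.05, as did 5.96% of all genes. All 3 were lower, where 3.04% of all genes were lower at that level. All TrbE10 hearts lay below all TrbE14 hearts for 2 members (1.73% of all genes did) and above them for 0 (1.64% of all genes did). A stronger shift in TrbE10 than in TrbE14 was therefore not shown for any single gene. The 2 comparisons against control share the control hearts, and slide differs between the mutant groups.

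Heart by heart, each subunit's log2 signal was set against its control mean and the median was taken over the 81 subunits. Control hearts gave 0.03, -0.04, 0.00 and 0.01, and TrbE14 hearts gave -0.06, -0.06, -0.13 and -0.12. TrbE10 hearts gave -0.23, -0.04, -0.18 and -0.16. The TrbE14 hearts were all below the control range, as were 3 of the 4 TrbE10 hearts. TrbE10 replicate 2 lay inside it: 59.3% of subunits were below their control mean in that heart, against 84.0% to 92.6% in the other TrbE10 hearts and 71.6% to 84.0% in TrbE14 hearts. The same heart had the highest Nkx2-5 signal of its group and the lowest signal of adipocyte markers of all hearts (median -3.15 against control, with Adipoq at 3.91 against 6.49 to 8.18 elsewhere). Their part in the result was not tested. Without that heart the median change of all member genes in TrbE10 was -0.20 and 3 members passed the adjusted threshold: Ndufb2, Ndufaf2 and Sdhc. Over all probes the calls in TrbE10 rose too without that heart, from 416 to 715.

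Scaling each array to its 75th percentile in place of quantile normalization gave larger shifts. Quantile normalization gives the probe at each rank the same value on every array, and its part in this difference was not tested. After scaling to the 75th percentile the subunits' median change was -0.24 in TrbE10 and -0.16 in TrbE14. On that scale 79 and 77 of 81 were negative, and the median of all genes was -0.08 and -0.06. Of the subunits, 75 were among the 1803 brightest genes on the array. Those bright genes had a median change of -0.03 in TrbE10 and -0.03 in TrbE14 after quantile normalization (60.9% and 60.7% negative), and -0.12 and -0.11 after scaling to the 75th percentile (82.0% and 79.5% negative). The part of brightness in the result was not tested further.

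**Figure D2:**
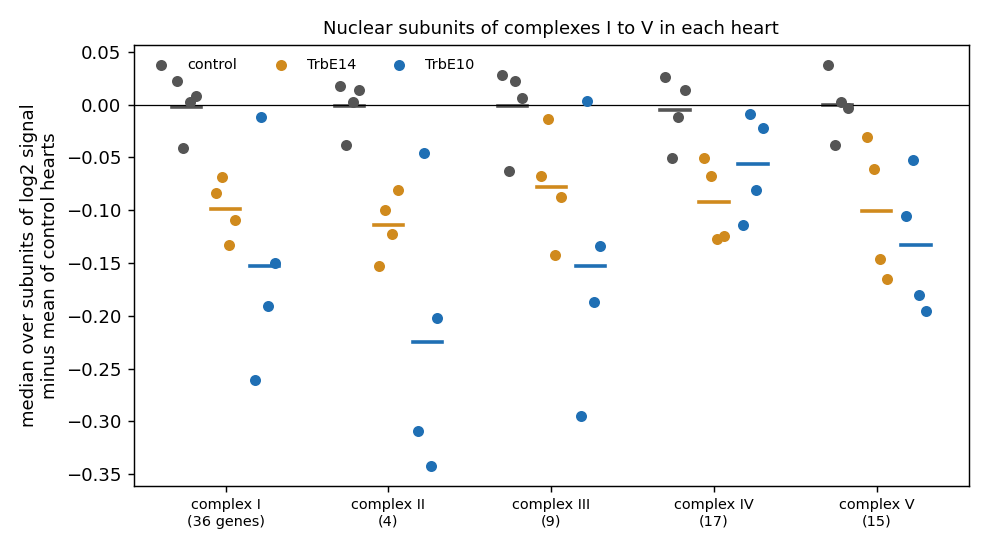
Median over the nuclear subunits of each complex of log2 signal minus the control mean, 1 point per heart and a bar at the group mean of 4 hearts. Complex II in TrbE10 hearts reaches -0.34, and TrbE10 replicate 2 lies near zero in complexes I, III and IV.

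Complex I takes electrons from NADH. The log2 changes of its 36 nuclear subunits had medians of -0.17 (TrbE10) and -0.10 (TrbE14), with 33 negative in each. Scaled to the 75th percentile they were -0.24 and -0.16, with 36 and 34 negative. The heart medians in TrbE10 were -0.26, -0.01, -0.19 and -0.15, and in TrbE14 -0.08, -0.07, -0.13 and -0.11. All 7 catalytic core subunits were negative in both groups, with medians of -0.19 and -0.10. Over the 29 supernumerary subunits, which surround the core and are needed for its assembly and stability, the medians were -0.16 and -0.10.

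Ndufb2 was the subunit with the strongest evidence. It read 15.51, 15.31, 15.42 and 15.34 in control hearts (log2 signal), 14.89, 15.11, 14.94 and 14.92 in TrbE10 hearts, and 15.28, 15.29, 15.32 and 15.55 in TrbE14 hearts. Every TrbE10 heart lay below every control and every TrbE14 heart. The change in TrbE10 was -0.43 ± 0.09 (SE, limma adjusted p = 0.0386), with an exact two-sided permutation p of 0.0286, the smallest that 4 against 4 arrays allow. In TrbE14 it was -0.04 ± 0.09 (limma adjusted p = 0.859). Its second probe gave -0.35 in TrbE10 and did not pass. The call was lost in the fit of the 2 groups alone (limma adjusted p = 0.0758), with no filter on dim probes (limma adjusted p = 0.0628) and under SAM. Leaving out any 1 control heart, TrbE10 replicate 1, 3 or 4, or TrbE14 replicate 1 or 2 also ended it, and over all 20 alternatives the limma adjusted p ran from 0.0196 to 0.105.

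Ndufv1, the core subunit that oxidises NADH, read 16.37, 16.30, 16.39 and 16.29 in control hearts. TrbE10 hearts read 16.14, 16.15, 16.14 and 16.01, all lower, and TrbE14 hearts 16.34, 16.38, 16.21 and 16.20, which overlapped control. The change in TrbE10 was -0.23 ± 0.07 (limma adjusted p = 0.158). The core iron-sulphur subunit Ndufs1 gave -0.18 ± 0.08 in TrbE10, where all hearts lay below control, and -0.01 ± 0.08 in TrbE14. Ndufa8, whose promoter is printed above, was below every control heart in both mutant groups, by -0.25 ± 0.09 in TrbE10 and -0.21 ± 0.09 in TrbE14, without passing the adjusted test in either.

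Ndufa1, a small supernumerary subunit encoded on the X chromosome, read 16.02, 15.97 and 16.00 in 3 control hearts, since its spot was an outlier on the array of control replicate 2. TrbE10 hearts read 15.79, 16.01, 15.84 and 15.98 and TrbE14 hearts 15.96, 15.98, 15.82 and 15.75. The groups overlapped, with changes of -0.09 ± 0.09 and -0.12 ± 0.09. Ndufa12, Ndufab1 and Ndufa3 were the 3 subunits of complex I without a negative value in either group after quantile normalization. Ndufa12 was at 15.70 to 15.75 in control, 15.74 to 15.89 in TrbE10 and 15.80 to 15.92 in TrbE14 hearts, and was above every control heart in TrbE14 (0.16 ± 0.07, limma adjusted p = 0.334). After scaling to the 75th percentile its change in TrbE10 was -0.03 and in TrbE14 0.06. Ndufab1, the mitochondrial acyl carrier protein, gave 0.00 ± 0.12 in TrbE10 and 0.15 ± 0.12 in TrbE14, and Ndufa3 gave 0.00 in both.

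The 4 Ndufaf assembly factors of complex I, which are not part of the finished complex, were all negative in both groups. Their medians were -0.17 in TrbE10 and -0.23 in TrbE14. Ndufaf2 read 11.30, 11.14, 11.32 and 11.37 in control hearts and 10.72, 11.46, 10.72 and 10.87 in TrbE10 hearts. TrbE10 replicate 2 was above all control hearts while the other 3 were below them, and the change was -0.34 ± 0.16 (limma adjusted p = 0.328). Without that heart it was -0.51 (limma adjusted p = 0.0422). Ndufaf4 changed by -0.14 ± 0.14 in TrbE10 and -0.31 ± 0.14 in TrbE14.

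Complex II, succinate dehydrogenase, joins the citric acid cycle to the chain and is encoded by 4 nuclear genes. All 4 were negative in both groups, with a median change of -0.22 in TrbE10 and -0.10 in TrbE14 (-0.26 and -0.16 after scaling to the 75th percentile). Sdhc, a membrane anchor, read 15.03, 15.07, 15.06 and 15.06 in control hearts, 14.48, 14.95, 14.63 and 14.84 in TrbE10 hearts, and 14.90, 14.84, 14.93 and 15.02 in TrbE14 hearts. Both mutant groups lay wholly below control. The changes were -0.33 ± 0.10 (limma adjusted p = 0.129) and -0.13 ± 0.10 (limma adjusted p = 0.567), and without TrbE10 replicate 2 the TrbE10 value passed (-0.41, limma adjusted p = 0.0492).

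Sdha, the flavoprotein that oxidises succinate, was at 14.61 to 14.72 in control and 14.40 to 14.60 in TrbE10 hearts with no overlap, a change of -0.18 ± 0.07. Its TrbE14 value was -0.07 ± 0.07. Sdhd, the other membrane anchor, changed by -0.25 ± 0.10 in TrbE10 and -0.20 ± 0.10 in TrbE14, where all hearts lay below control. Sdhb, the iron-sulphur subunit, changed by -0.12 ± 0.09 and -0.03 ± 0.09. The median heart value over the 4 genes lay between -0.34 and -0.05 in TrbE10, between -0.15 and -0.08 in TrbE14, and between -0.04 and 0.02 in control hearts.

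Complex III passes electrons from ubiquinol to cytochrome c. All 9 subunits measured were negative in both groups, with a median of -0.14 in TrbE10 and -0.09 in TrbE14, and none separated all mutant from all control hearts. Uqcrfs1, the Rieske iron-sulphur protein, read 14.60, 14.42, 14.48 and 14.69 in control hearts and 14.26, 14.51, 14.24 and 14.20 in TrbE10 hearts. Replicate 2 alone overlapped control, and the change was -0.25 ± 0.09 (limma adjusted p = 0.211). Uqcrc1, a structural core protein, changed by -0.25 ± 0.11 in TrbE10 and -0.17 ± 0.11 in TrbE14. Cyc1, which carries the haem of cytochrome c1, changed by -0.19 ± 0.10 and -0.11 ± 0.10. After scaling to the 75th percentile the median of the 9 was -0.25 in TrbE10 and -0.17 in TrbE14.

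Complex IV, cytochrome c oxidase, passes the electrons to oxygen and had subunits with values of both signs. The median over its 17 nuclear subunits was -0.11 in TrbE10 and -0.11 in TrbE14, with 14 and 13 negative, and the values ran from -0.57 to 0.38 in TrbE10. Without control replicate 3 the medians were -0.07 and -0.07. After scaling to the 75th percentile they were -0.20 and -0.18, with 15 and 16 negative. TrbE10 heart medians were -0.11, -0.01, -0.08 and -0.02, and the last of these lay within the control range of -0.05 to 0.03, as did that of replicate 2.

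Cox7a1, the heart and muscle isoform of its subunit, read 18.12, 18.12, 18.32 and 18.12 in control hearts. TrbE10 hearts read 17.76, 17.87, 17.91 and 18.00, all below control, and TrbE14 hearts 18.12, 18.00, 18.00 and 18.12, which overlapped it. The change in TrbE10 was -0.29 ± 0.08 (limma adjusted p = 0.113, exact two-sided permutation p = 0.0286) and in TrbE14 -0.11 ± 0.08. Repeated readings such as 18.12 come from quantile normalization, which gives the probes at each rank the same value, and Cox7a1 is among the brightest. For Cox6a2, another heart isoform whose probe is also at the top of the ranks, the normalized change was 0.00 in both groups, and after scaling to the 75th percentile it was -0.14 and -0.12. Cox6b1 was also below control in every TrbE10 heart, by -0.29 ± 0.09 (limma adjusted p = 0.13).

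Cox4i2 went the other way. It is the alternative isoform of subunit 4, known from lung and from cells at low oxygen, and read 10.11, 9.77, 10.03 and 9.89 in control hearts. TrbE10 hearts read 10.33, 10.20, 10.40 and 10.39 and TrbE14 hearts 10.22, 10.25, 10.71 and 10.20. Every mutant heart of both groups lay above every control heart. The changes were 0.38 ± 0.12 (limma adjusted p = 0.162) and 0.40 ± 0.12 (limma adjusted p = 0.219), each with an exact two-sided permutation p of 0.0286. Cox4i1, the main isoform, read 17.52 to 17.58 in control hearts and changed by -0.11 ± 0.07 and -0.07 ± 0.07. As a log2 ratio of Cox4i1 to Cox4i2 relative to control, TrbE10 hearts gave -0.52, -0.43, -0.53 and -0.47 and TrbE14 hearts -0.39, -0.38, -0.90 and -0.21. Control hearts ran from -0.19 to 0.20, so that no mutant heart fell within their range. The part of a changed mix of cells in this ratio was not tested.

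**Figure D3:**
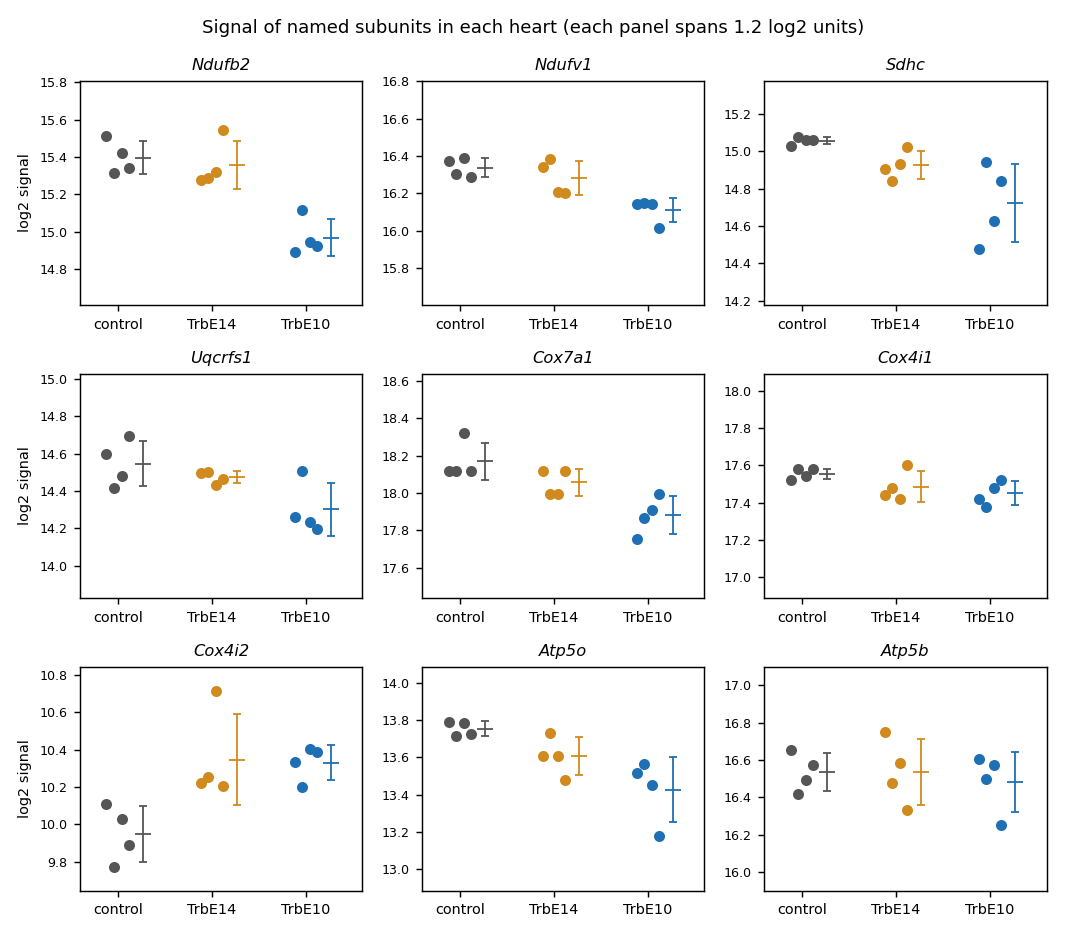
log2 signal of 9 named subunits in each heart (points), with the mean and SD of 4 hearts beside them. Ndufb2, Ndufv1, Sdhc, Cox7a1 and Atp5o lie below control in all TrbE10 hearts, Cox4i2 lies above control in all mutant hearts, and Atp5b overlaps.

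The other isoform pairs differed less from control. For subunit 8 the log2 ratio of the heart isoform Cox8b to the ubiquitous Cox8a was -0.19 ± 0.14 (SD, n = 4) in TrbE10 and -0.16 ± 0.13 (SD, n = 4) in TrbE14, with 3 of 4 hearts in each group below the control range. Cox8a was above control in every TrbE10 heart (15.81 to 15.96 against 15.73 to 15.80), a change of 0.13 ± 0.08 that was 0.03 after scaling to the 75th percentile, and in TrbE14 0.03 became -0.06. For subunit 7a the ratio of Cox7a1 to Cox7a2 was -0.07 ± 0.10 (SD, n = 4) in TrbE10 and 0.14 ± 0.13 (SD, n = 4) in TrbE14, and for subunit 6a that of Cox6a2 to Cox6a1 was -0.03 ± 0.12 and -0.05 ± 0.08. Cox7a2 itself changed by -0.21 ± 0.08 and -0.25 ± 0.08.

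Some values of complex IV rested on 1 heart or on dim probes. Cox5a read 17.09, 17.09, 16.94 and 15.83 in TrbE14 hearts against 17.07 to 17.19 in control, so its change of -0.37 ± 0.23 came from replicate 4. Cox7b2 was well above background on 3 control arrays, 2 arrays of TrbE10 and 1 of TrbE14, and its changes of -0.57 ± 0.68 and -1.60 ± 0.68 have wide errors. Ndufa4l2, a paralogue of Ndufa4 that low oxygen is known to induce and that is not counted in the complex, gave 0.19 ± 0.11 and 0.20 ± 0.11, with groups that overlapped control.

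Complex V, the ATP synthase, had 15 subunits with a median change of -0.13 in TrbE10, all 15 negative, and -0.09 in TrbE14, 13 negative. Scaled to the 75th percentile the medians were -0.23 and -0.14, with 15 and 14 negative. Heart medians were -0.11, -0.05, -0.18 and -0.20 in TrbE10 and -0.03, -0.06, -0.15 and -0.16 in TrbE14. Atp5o, a stalk subunit, read 13.79, 13.72, 13.79 and 13.72 in control hearts and 13.52, 13.56, 13.45 and 13.18 in TrbE10 hearts. All 4 were lower, by -0.33 ± 0.10 (limma adjusted p = 0.119), and the TrbE14 value was -0.15 ± 0.10.

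The catalytic subunits of complex V overlapped control in both groups. Atp5b read 16.66, 16.42, 16.49 and 16.58 in control hearts, 16.61, 16.50, 16.58 and 16.25 in TrbE10 hearts, and 16.75, 16.48, 16.58 and 16.33 in TrbE14 hearts. The 3 groups overlapped throughout, with changes of -0.05 ± 0.11 and 0.00 ± 0.11. Atp5a1 changed by -0.12 ± 0.12 and 0.03 ± 0.12. Of the c ring genes, Atp5g2 was below control in all TrbE10 hearts (-0.20 ± 0.08), while Atp5g1 gave -0.07 ± 0.08 and Atp5g3 -0.19 ± 0.14.

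Where 30 members had several probes, their changes differed by a median of 0.13 in TrbE10 and 0.07 in TrbE14, about the size of the shifts described here. Probes of Atp5c1, Ndufa3, Ndufb5 and Uqcrb differed by over 0.5 in TrbE10, with Atp5c1 running from -0.68 to -0.13 and Ndufa3 from -0.06 to 0.58.

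Genes of the chain that are encoded in mitochondrial DNA had medians near zero, and their difference from the nuclear subunits was not tested. The median change of the 13 was 0.01 in TrbE10 and 0.06 in TrbE14, with 5 and 1 negative. After scaling to the 75th percentile the medians were -0.07 and -0.01 and 11 and 8 were negative. For COX1, the catalytic subunit of complex IV, the change was 0.04 ± 0.10 in TrbE10, and for CYTB, the haem protein of complex III, 0.01 ± 0.09. Of the 13 genes 12 were in the same group of 1803 brightest genes as most subunits, and 0 passed the adjusted test in either comparison (limma), nor did any have an unadjusted p under 0.05.

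Enzymes that feed the chain had negative medians too. Over all genes the medians were -0.02 in TrbE10 and -0.03 in TrbE14, with 54.8% and 55.9% negative. In TrbE14 the fatty acid oxidation list was near those values. All 14 citric acid cycle genes were negative in both groups, with medians of -0.20 and -0.09. At an unadjusted p under 0.05 (limma) there were 7 and 1, or 50% and 7.14%, against 16.8% and 13.9% of all genes. Fh1, fumarase, which acts on the product of complex II, read 14.47, 14.67, 14.53 and 14.56 in control and 14.17, 14.27, 14.10 and 14.26 in TrbE10 hearts. All 4 were lower, and the fall of -0.36 ± 0.07 passed the test (limma adjusted p = 0.0346), whereas the TrbE14 value was -0.21 ± 0.07 (limma adjusted p = 0.26). The TrbE10 call was lost when any 1 heart was left out other than TrbE10 replicate 2 and TrbE14 replicate 3, with a limma adjusted p between 0.0177 and 0.102 over 20 alternatives. The 18 genes of fatty acid oxidation had a median of -0.19 in TrbE10 with 17 negative and -0.04 in TrbE14 with 11 negative (15 after scaling to the 75th percentile), and 0 of 18 passed in either (limma), with 4 and 1 at an unadjusted p under 0.05. Those are 22.2% and 5.56% of the list, against 16.8% and 13.9% of all genes.

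Most known regulators of mitochondrial genes also lay low without passing the test. The median over 13 was -0.15 in TrbE10, 12 negative, and -0.11 in TrbE14, 11 negative, with 0 called by limma. Nrf1 was the highest of the list in TrbE10, at 0.04 the 1 positive gene, and Gabpa was the highest in TrbE14, at 0.12. At an unadjusted p under 0.05 there were 4 and 2, or 30.8% and 15.4% of the list against 16.8% and 13.9% of all genes. Ppara, a nuclear receptor that drives fatty acid oxidation, read 12.66, 12.64, 12.12 and 12.12 in control hearts, 11.74, 12.18, 11.60 and 11.72 in TrbE10 hearts and 11.95, 12.06, 11.83 and 11.77 in TrbE14 hearts. Its changes were -0.57 ± 0.16 (limma adjusted p = 0.11) and -0.48 ± 0.16 (limma adjusted p = 0.254), and it is named here after its values were seen. The assembly genes of cytochrome c oxidase with cytochrome c gave medians of -0.12 and -0.09 over 12 genes, and the other assembly factors of the chain -0.14 and -0.15 over 15, with 0 called by limma in either list. In TrbE10 and TrbE14 respectively, 2 and 0 genes of the first list (16.7% and 0%) and 4 and 2 of the second (26.7% and 13.3%) had an unadjusted p under 0.05, against the same 16.8% and 13.9% of all genes. For 10 genes of the pyruvate dehydrogenase complex the medians were -0.06 and -0.04, with 7 and 5 negative and 0 called (1 and 0 at an unadjusted p under 0.05). For 6 genes of uncoupling and ATPase inhibition they were 0.10 and 0.04 with 0 called (0 and 0).

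**Figure D4:**
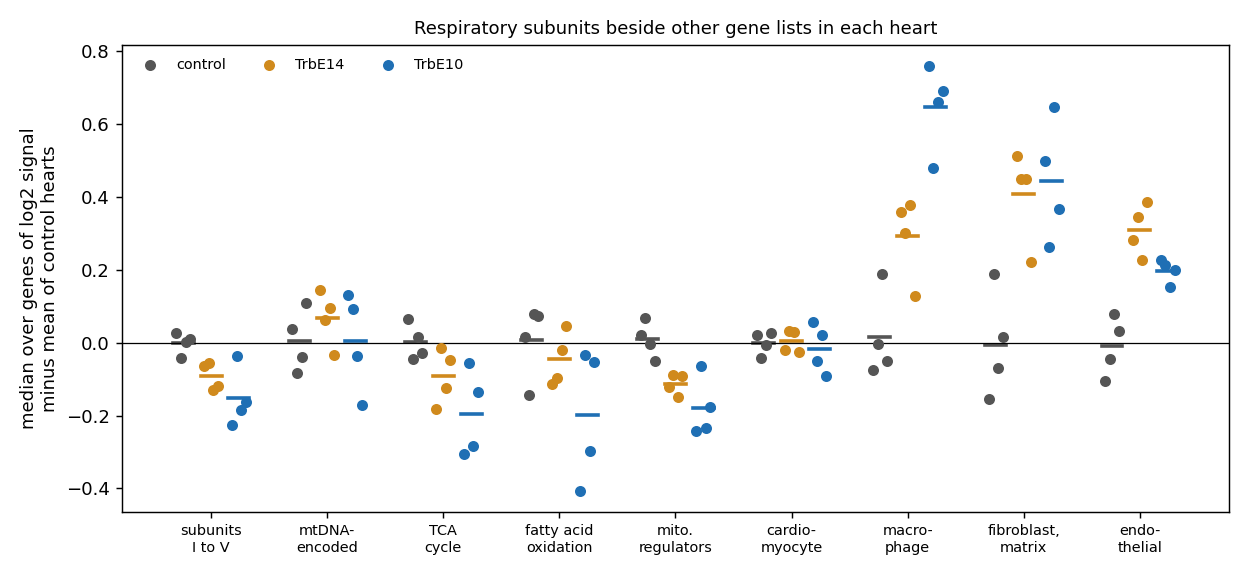
Median over the genes of each list of log2 signal minus the control mean, 1 point per heart and a bar at the group mean of 4 hearts. The subunits, citric acid cycle genes and regulators lie below zero in mutant hearts, mitochondrially encoded and cardiomyocyte genes lie around zero, and macrophage, fibroblast and endothelial markers lie above it.

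Markers of other cell types moved with the groups. Over 17 macrophage markers the median change was 0.61 in TrbE10 (16 positive, 7 called) and 0.30 in TrbE14 (15 positive, 1 called), where 1.93% and 0.66% of all genes were called. Csf1r, the receptor of macrophage growth factor, rose by 1.14 ± 0.08 in TrbE10 (limma adjusted p = 0.000112) and 0.92 ± 0.08 in TrbE14 (limma adjusted p = 0.000607). C1qa, C1qc, Cd68, Fcer1g, Fcgr1 and Tyrobp rose in TrbE10 by 0.60 to 1.25. Itgam was the 1 negative marker in TrbE10 (-0.09), and Cd52 was the lowest in TrbE14 (-0.39). The heart medians of this list were 0.48 to 0.76 in TrbE10, 0.13 to 0.38 in TrbE14 and -0.07 to 0.19 in control hearts. Over 15 fibroblast and matrix markers the medians were 0.46 and 0.43, with 14 and 13 positive and Dcn, decorin, called in both. Thy1 of that list went the other way, with changes of -0.54 and -0.52. Over 12 endothelial markers the medians were 0.21 and 0.25, with 11 positive in each, Vwf called in both and Eng in TrbE10. Csf1r passed under all 20 alternatives in both groups, whereas Dcn, Vwf, Eng and the other macrophage genes each lost a TrbE10 call when some single hearts were left out or in other alternatives, with limma adjusted p up to 0.106. In TrbE14 the Dcn call was lost without control replicate 2, 3 or 4 or TrbE14 replicate 1 or 2. It was also lost with replicate number as a block and after scaling to the 75th percentile (limma adjusted p up to 0.0673). The Vwf call in TrbE14 was lost on that scale too, with no filter, with the 2 groups alone and with the block. Leaving out any 1 of control replicates 1, 3 and 4, TrbE10 replicates 1 and 4 and all TrbE14 replicates also ended it (limma adjusted p up to 0.13).

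Cardiomyocyte markers gave a median of -0.04 in TrbE10 and 0.03 in TrbE14 over 15 genes, 10 and 7 of them negative, with heart medians between -0.09 and 0.06 in the 12 hearts and 0 genes called by limma. At an unadjusted p under 0.05 there were 4 and 2 (26.7% and 13.3%), against 16.8% and 13.9% of all genes. After scaling to the 75th percentile these medians were -0.13 and -0.03, with 12 and 9 negative. After quantile normalization single markers ran from -0.41 (Ryr2) to 2.07 (Nppa) in TrbE10 and from -0.21 (Myh6) to 1.65 (Nppa) in TrbE14. All TrbE10 hearts lay below all control hearts for 3 of the 15 (20%) and above for 0. That share below was 18.5% for the subunits and 5.63% for all genes. In TrbE14 it was 1 marker below (6.67%, against 5.43% of all genes) and 1 above. Adipocyte markers, 5 of 6 negative in each group, and erythroid markers, 4 of 5 and 3 of 5 positive, varied widely between hearts and had 0 called by limma. At an unadjusted p under 0.05 there were 2 and 0 adipocyte genes and 0 and 0 erythroid genes. In whole ventricle fewer cardiomyocytes and less RNA per cardiomyocyte cannot be told apart, and the part of the higher macrophage, fibroblast and endothelial markers in the lower subunit levels was not tested.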

How the data were processed

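Total RNA of 12 left ventricles was labelled with Cy3 and hybridised to 1-colour Agilent SurePrint G3 8x60K arrays, and Agilent Feature Extraction 10.5 (the submitters' processing notes) gave the deposited processed signal intensity of each spot. The authors' normalized log2 table was deposited too and served as an alternative. Here log2 of the processed intensity was taken, and arrays were quantile normalized, as the methods state. Control spots and outlier spots were left out, and spots of 1 probe were averaged. Probes well above background on 3 of 4 arrays of any group were kept (24593 probes), a gene was represented by its brightest such probe, and limma 3.58.1 in R 4.3.3 was fitted to all 12 arrays with Benjamini-Hochberg adjustment over all kept probes. Differences are on the log2 scale, ± is the SE of the fit unless SD is named, and probe levels of different genes cannot be compared.

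The members, gene lists and motifs were chosen with earlier results of these data known. Named genes are Ndufa1, Cox7a1 and Atp5b, every member called, the 5 largest rises and falls against control, the isoform pairs, a fixed set of catalytic subunits, Nkx2-5, and the genes of other lists that the fit called. Others that appear (Ndufa8, Cox6b1, Ndufa3, Ndufb5, Uqcrb, Atp5c1, Atp5g1, Atp5g2, Atp5g3, Ppara, Nrf1, Gabpa, Ryr2, Myh6, Nppa, Itgam, Cd52, Adipoq, Thy1, COX1, CYTB and genes of the printed promoters) were chosen after their values were seen. The values of 1 subunit are not reported here singly, though it stays in counts and medians. The fit was tested on simulated data. The labels name separate replicates without saying that they are separate litters. The number of arrays, 4 per group, limits the precision, and a correction for slide could not be run because 1 slide held TrbE10 alone. Promoters come from RefSeq on GRCm38.p6.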

Additional observations from a re-analysis of the deposited data

Results flagged for a closer look

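Among 144 sets of 4 hearts, 14 held a heart whose distance from the nearest other heart took up most of the range of its group. About 1 in 20 such sets is picked out by chance alone. In control hearts these were Cox7a1 in replicate 3 (log2 signal 18.32), Cox5a in replicate 1 (17.19), Cox7a2 in replicate 2 (15.01), Cox7b2 in replicate 2 (3.83, near background), Cox6a2 in replicate 3 (18.12) and Csf1r in replicate 3 (12.43). In TrbE14 hearts they were Cox5a in replicate 4 (15.83), Ndufb2 in replicate 4 (15.55), Sdhb in replicate 4 (16.21), Cox4i2 in replicate 3 (10.71) and Cox6a2 in replicate 3 (18.12). In TrbE10 hearts they were Ndufv1 in replicate 4 (16.01), Cox6a2 in replicate 2 (18.12) and Nkx2-5 in replicate 2 (11.67). The Cox6a2 values stand among the brightest probes, and the cause of these values was not tested.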

How the results depend on the processing

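The median change of the member genes and of each complex stayed below zero in every comparison under every alternative run. For the member genes in TrbE10 it ran from -0.24 to -0.15 over the alternatives that kept all hearts, and in TrbE14 from -0.16 to -0.09. Scaling to the 75th percentile gave the lower end of both, -0.24 and -0.16. The medians of all genes in TrbE10 and TrbE14 were below zero too, at -0.02 and -0.03 after quantile normalization. After scaling to the 75th percentile they were -0.08 and -0.06, and those of the 1803 brightest genes were -0.12 and -0.11. On that scale the TrbE10 medians were -0.24 in complex I, -0.25 in complex III, -0.20 in complex IV and -0.23 in complex V, and the TrbE14 medians were -0.16 in complexes I and II, -0.17 in complex III, -0.18 in complex IV and -0.14 in complex V. Without control replicate 3 the median of complex IV was -0.07 in both groups. When hearts were left out 1 at a time, the member median ran from -0.20 to -0.13 in TrbE10, from -0.11 to -0.08 in TrbE14, and from -0.08 to -0.03 between the mutant groups.

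The number of member genes called in TrbE10 was 1. It was 2 after scaling to the 75th percentile (Cox6b1 and Ndufb2), 0 with no filter, 0 with the 2 groups alone and 0 by SAM. Over all probes 416 were called in the main fit, and 495, 197, 263 and 522 under these alternatives in turn. With 1 heart left out at a time the number of members ran from 0 to 3. The 3 came without TrbE10 replicate 2, where 715 probes were called in all. In TrbE14 and between the mutant groups the number of members was 0 under every alternative, where SAM called 326 and 2 probes in all. With replicate number as a block it was 0 in TrbE10, and Ndufb2 had a limma adjusted p of 0.0902. Correlations of same-numbered hearts ran from -0.24 to 0.08 between control and mutant hearts. Between TrbE10 and TrbE14 hearts they were 0.37, 0.31, -0.01 and 0.48, so 3 of these 4 but not all were over 0.1, and a shared source of same-numbered mutant hearts was not settled by the labels. With the block, 0 members were called between the mutant groups too. The 4 hearts per group, a slide that held TrbE10 alone and the dependence on scaling limit what changes of this size can show. The cause of the differences between alternatives was not tested.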
